A study of Mus musculus with 12 samples.

Results

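The genes described here are 10 components of the Notch pathway, chosen by symbol: the ligands Dll4, Jag1 and Jag2, the receptors Notch1 and Notch4, and the target genes Hes1, Hes5, Hey1, Hey2 and Heyl. All 10 were found among the 50559 genes of the count table, and all 10 passed the filter on low counts in every comparison. They were measured by RNA-Seq in retinas of WT C57BL/6J mice collected at P28, in 4 groups of 3 libraries each. IgG retinas came from pups given 30 µg of rat isotype control IgG s.c. at P1. APB5 retinas came from pups given the same amount of APB5, a rat monoclonal antibody against mouse PDGFRβ that blocks the receptor that pericytes need to be recruited to growing vessels. IgG+Mino and APB5+Mino mice received the respective antibody and then minocycline, a tetracycline antibiotic used to dampen microglia reactivity, daily i.p. from P5 to P27 at 45 mg/kg. No group carried a transgene, so all groups share the WT background and an antibody injection. The study describes the samples of a group as separate mice, and the labels do not give their sex.

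Notch signaling passes between touching cells. A ligand of the Delta-like or Jagged family on one cell binds a Notch receptor on its neighbor, the receptor is cut by ADAM proteases and then by γ-secretase, and the released intracellular domain enters the nucleus. There it joins the DNA-binding protein RBPJ and Mastermind coactivators and turns on genes of the Hes and Hey families, which encode basic helix-loop-helix repressors. In the growing retinal vasculature, Dll4 on endothelial tip cells restrains sprouting of neighboring cells through Notch1, and Jag1 opposes Dll4. Notch4 is a receptor found mainly on endothelium, and Hes1 and Hes5 are also known from Müller glia and their progenitors.

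The libraries held 54774684 to 59411044 counts in IgG, 56194301 to 59265364 in IgG+Mino, 53392207 to 58852253 in APB5 and 52740545 to 57160704 in APB5+Mino. Expression is given as CPM, counts scaled to the library total with TMM factors across all 12 libraries. The least abundant genes of the set, Hes5 and Heyl, were still read at 67 to 449 and 74 to 413 counts per library. The detection limit, set at 3 counts, equaled 0.0456 to 0.0585 CPM. The tissue label was met by the rod markers, all of which were detected in these retinas. Of the 10 genes, 7 overlap a gene annotated on the opposite strand, which leaves Jag2, Hey2 and Heyl without one, and whether the counting used the strand is not stated in the sources used here. In bulk retina, fewer cells of a type and less RNA per cell cannot be told apart.

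Some libraries stood apart, which bears on nearly all values below. In a principal component analysis APB5 replicate 3 had a score of 126.9 on component 1 (38.5% of variance), whereas the other 11 libraries scored −53.77 to 25.56. Its summed rod markers were 12316 CPM, against 56118 and 48358 CPM in the other APB5 retinas. Its summed reactive glia markers were 5105 CPM against 607 and 614 CPM, its microglia and macrophage markers 471 CPM against 83.7 and 79.3 CPM, and its pericyte and smooth muscle markers 469 CPM against 130 and 127 CPM. Its pigment epithelium and melanocyte markers were 443 CPM against 92.7 and 51.1 CPM. Lens markers summed to 1892 CPM in IgG+Mino replicate 3, against 34.5 and 5.48 CPM in the rest of that group. They were 720 CPM in IgG replicate 1, against 103 and 48.3 CPM in the other IgG retinas. IgG replicate 3 scored highest on component 2, at 56.75 (15.8% of variance). Xist, which coats the silenced X chromosome of females, was high (47210 counts or more) in all of IgG and in replicate 3 of both APB5 and APB5+Mino, and near absent (38 counts or fewer) in the other 7 libraries. Y-linked counts were 1 to 6 in the libraries high in Xist and 9336 to 13390 in those low in it. By these counts the IgG libraries were female and the IgG+Mino libraries male. For IgG+Mino against IgG, minocycline and this difference in sex therefore cannot be told apart. The same limit holds for APB5 against IgG wherever APB5 replicate 3 is left out. The APB5 libraries that remain are then male and the IgG libraries female, so antibody and sex cannot be told apart.

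Per kilobase of the canonical transcript, Jag1 had the highest level of the 10 genes, with a median of 13.8 CPM per kb over the 12 libraries, followed by Jag2 with 12.9. Jag1 exceeded Jag2 in 6 of 12 libraries, so their order was not resolved. Hes1 followed with 8.94 CPM per kb, and then Hey1 with 4.36, Hey2 with 4.28 and Notch1 with 3.35. Hes1 was above Hey1 in 12 of 12 libraries and Hey2 above Notch1 in 12 of 12, whereas Hey1 was above Hey2 in only 4. Hes5 at 1.38, Notch4 at 0.838, Dll4 at 0.784 and Heyl at 0.432 CPM per kb were the lowest, and Notch4 exceeded Dll4 in 7 of 12 libraries. The Jagged ligands thus stood at the top of the list and the Delta-like ligand near its end. Relative to their means, Dll4 and Jag2 varied least over all libraries, with coefficients of variation of 16% and 16.3%, and Hes5 and Hes1 most, with 79.2% and 65.7%.

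**Figure D1:**
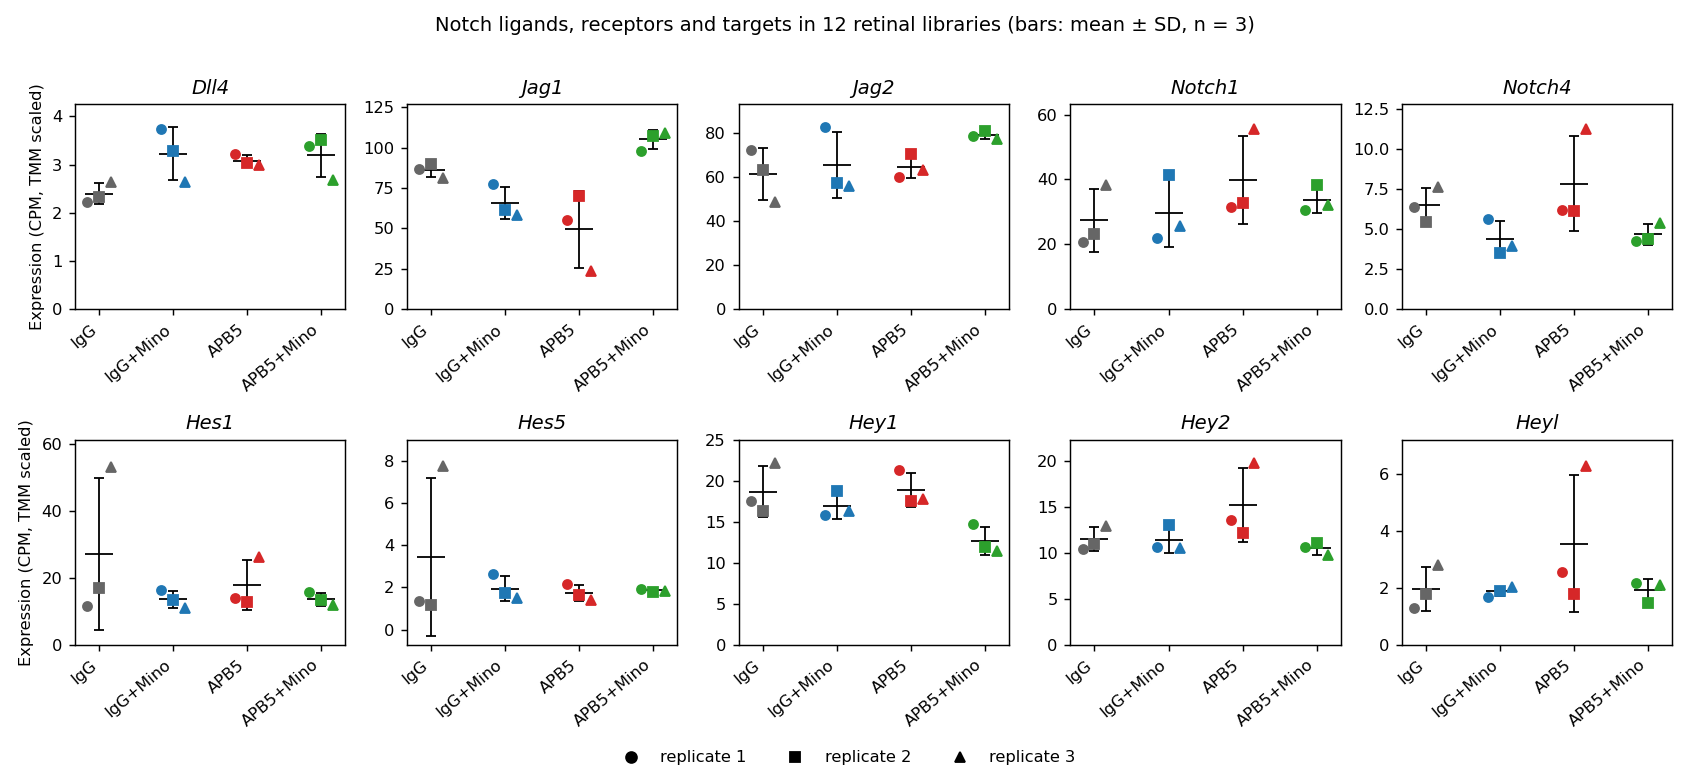
Expression (CPM after TMM scaling, linear axes) of each gene in the 12 libraries, by group, with a symbol for each replicate number, and with bars for mean ± SD (n = 3). Jag1 was lowest in APB5 replicate 3 (23.6 CPM) and above 97 CPM in all APB5+Mino libraries, Hes1 and Hes5 were highest in IgG replicate 3, and Notch1, Notch4, Hey2 and Heyl were highest in APB5 replicate 3.

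None of the 10 genes was a DEG (adjusted P up to 0.05, 2-fold or more) in any comparison by edgeR's quasi-likelihood test. For APB5 against IgG, 0 of 10 passed and 0 of 10 had an unadjusted P under 0.05, beside 0% and 7.23% of the 20350 genes tested, and DESeq2 also called 0 of the 10. For APB5+Mino against APB5, 0 of 10 passed, beside 1.66% of 20281 genes, and 0 of 10 passed without a fold threshold, beside 4.82%. At an unadjusted P under 0.05 there were 5 of 10, with Jag1 and Jag2 higher and Notch4, Hey1 and Hey2 lower, beside 35.9% of all genes, and DESeq2 called 1, Jag1, of 1531 genes it called in all. For IgG+Mino against IgG, 0 of 10 passed beside 0.0298% of 20143 genes, 2 of 10 (Jag1 and Notch4, both lower) had an unadjusted P under 0.05 beside 8.37%, and DESeq2 called 0. For APB5+Mino against IgG+Mino, 0 of 10 passed at 2-fold beside 1.23% of 20049 genes. Without the fold threshold 1 of 10, Jag1, passed there beside 8.09%, and 2 of 10 (Jag1 higher, Hey1 lower) had an unadjusted P under 0.05 beside 29.3%. DESeq2 called 0 of the 10 at 2-fold in that comparison. These shares are near the background of each comparison. The APB5+Mino libraries enter 2 of the comparisons, as do those of every other group, so that the comparisons are not independent of each other.

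The groups of 3 did not overlap for Dll4 and Jag1 in APB5 against IgG, which is 2 of 10 genes beside 15.7% of all genes. They did not overlap for 5 of 10 genes in APB5+Mino against APB5 beside 46.5%, for 2 of 10 in IgG+Mino against IgG beside 14.4%, and for 2 of 10 in APB5+Mino against IgG+Mino beside 35.2%. The median log2 fold change of the 10 genes was 0.18 for APB5 against IgG, −0.31 for APB5+Mino against APB5, −0.09 for IgG+Mino against IgG and 0.02 for APB5+Mino against IgG+Mino. The medians over all genes tested in these comparisons were −0.002, −0.020, −0.010 and −0.009.

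**Figure D2:**
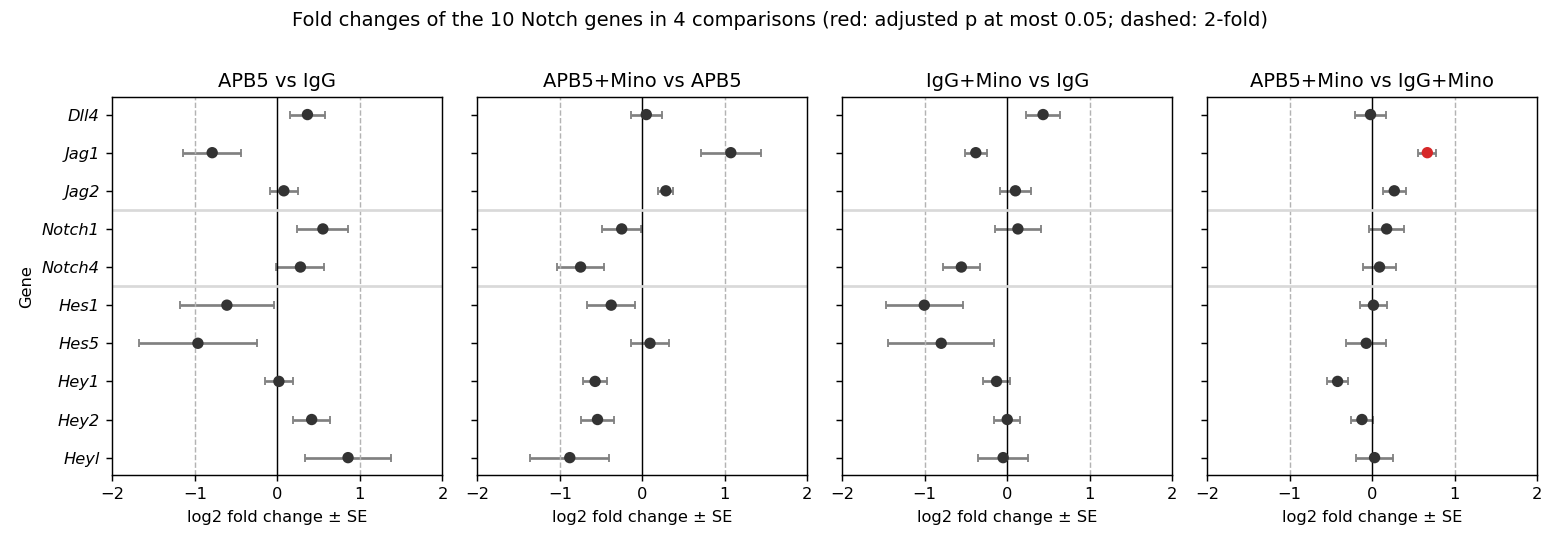
Log2 fold changes with SE (points and horizontal bars) of the 10 genes in the 4 comparisons, with dashed lines at 2-fold and red for an adjusted P of at most 0.05. Jag1 in APB5+Mino against IgG+Mino, at 0.67, is the one red point, and the signs of Jag1 differ between the comparisons.

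Among the ligands, Jag1 varied most between groups. The gene lies at chr2:136923373-136958693 on the minus strand (GRCm39). Its levels were 86.7, 90.0 and 81.3 CPM in IgG, 77.2, 61.3 and 58.5 CPM in IgG+Mino, 55.3, 70.0 and 23.6 CPM in APB5, and 98.0, 107 and 109 CPM in APB5+Mino. All APB5 and all IgG+Mino libraries lay below all IgG libraries, and all APB5+Mino libraries lay above the other 9. The group means were 86.0 ± 4.4 CPM in IgG, 65.7 ± 10.1 CPM in IgG+Mino, 49.6 ± 23.8 CPM in APB5 and, in APB5+Mino, 105 ± 5.76 CPM (SD, n = 3 each).

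Jag1 was 1.59-fold higher in APB5+Mino than in IgG+Mino retinas, with a log2 fold change of 0.67 (SE 0.11 and adjusted P = 0.0180 by edgeR). This call held with the replicate number as a block (adjusted P = 0.00833) but was lost without IgG+Mino replicate 3, APB5+Mino replicate 2 or APB5+Mino replicate 3 (adjusted P = 0.0790, 0.0952 and 0.106), and when all 12 libraries shared a fit (adjusted P = 0.251). In the same comparison 12 of 12 microglia and macrophage markers had lower values, with a median log2 fold change of −0.705. So did 10 of 12 Müller glia markers (median −0.258) and 8 of 8 rod markers (median −0.212). Of these lists 6, 4 and 2 markers had an adjusted P up to 0.05 by edgeR, beside 8.09% of all genes. The part of these cells in the level of Jag1 was not tested. Against APB5 retinas, Jag1 in APB5+Mino was 2.10-fold higher (log2 fold change 1.07, SE 0.36), which missed the threshold (adjusted P = 0.0861 by edgeR). Without APB5 replicate 3 its fold change was smaller and the spread narrower, at 0.73 on the log2 scale with an adjusted P of 0.00381, and among the libraries low in Xist it was 0.71 with an adjusted P of 0.0283. Without APB5 replicate 2 it was 1.40 with an adjusted P of 0.0423, whereas without APB5 replicate 1 or any of the APB5+Mino libraries the adjusted P was 0.147 to 0.243. The remaining differences did not pass. Jag1 in APB5 against IgG had a log2 fold change of −0.79 (SE 0.35 and adjusted P = 0.664 by edgeR). Without APB5 replicate 3, which leaves male APB5 and female IgG libraries by Xist, it became −0.45. In IgG+Mino against IgG it was −0.38 (SE 0.13, adjusted P = 0.585 by edgeR).

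The 4 groups also allow a test of whether the difference between retinas with and without minocycline was unlike under the 2 antibodies. Its IgG side compares male with female libraries by Xist, so minocycline and sex cannot be told apart in it. For Jag1, minocycline went with a lower level in IgG retinas and a higher level in APB5 retinas, and the difference of the log2 fold changes was 1.46 (SE 0.40). Its unadjusted P was 0.00307 and its adjusted P 0.159 in a fit of all 12 libraries, so it did not pass the correction over 21228 genes. In this interaction 0 of the 10 genes were called, beside 0.0141% of all genes, and 1 of 10, Jag1, had an unadjusted P under 0.05 beside 17.1%. DESeq2 called Jag1 among 395 genes, and edgeR called it among 69 genes without APB5 replicate 3.

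Jag2, the other Jagged ligand, lies at chr12:112871421-112893437 on the minus strand. It measured 72.3, 62.9 and 48.6 CPM in IgG, 82.6, 57.3 and 55.9 CPM in IgG+Mino, 60.0, 70.3 and 63.2 CPM in APB5 and 78.6, 80.5 and 77.3 CPM in APB5+Mino. The APB5+Mino libraries lay close together and above all APB5 libraries, and above all IgG libraries, whereas the IgG+Mino libraries spread from below the APB5 libraries to above the APB5+Mino libraries. Jag2 in APB5+Mino against APB5 had a log2 fold change of 0.29 (SE 0.09 and adjusted P = 0.0861 by edgeR). With library size alone as the scaling this was 0.20 with an adjusted P of 0.204, by DESeq2 it was 0.29 with 0.0481, and over the omission of single libraries the adjusted P was 0.0488 (without APB5 replicate 2) to 0.259. In the other comparisons its log2 fold changes were 0.08 to 0.27, with adjusted P values of 0.248 to 0.911.

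The ratio of Jag1 to Jag2 per kilobase was examined after these values were seen. It was 1.08, 1.29 and 1.5 in IgG, 0.840, 0.962 and 0.941 in IgG+Mino, 0.829, 0.896 and 0.335 in APB5, and 1.12, 1.19 and 1.26 in APB5+Mino. Per kilobase, Jag1 thus exceeded Jag2 in all IgG and APB5+Mino libraries and stayed below it in all IgG+Mino and APB5 libraries. The ratio does not depend on how libraries were scaled, but its side of 1 depends on the transcript lengths used. In CPM not divided by length, Jag1 was above Jag2 in IgG+Mino replicates 2 (61.3 against 57.3) and 3 (58.5 against 55.9). It was below Jag2 in IgG+Mino replicate 1 (77.2 against 82.6). It was chosen for its pattern and was not tested.

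**Figure D3:**
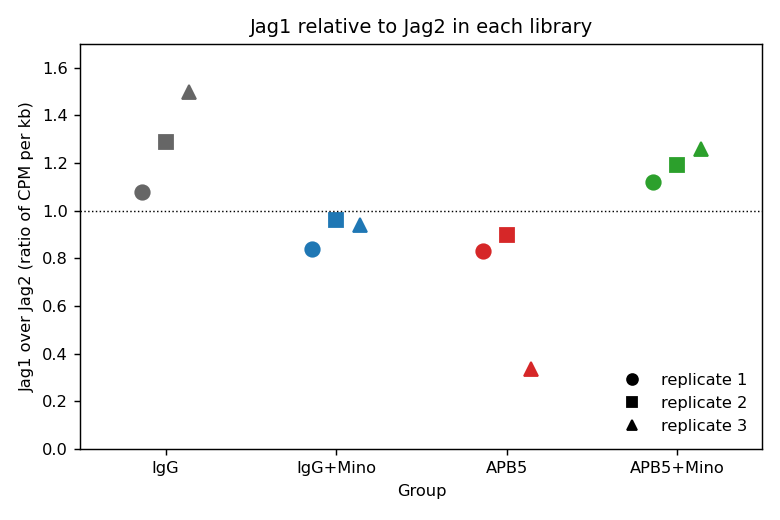
Ratio of Jag1 to Jag2 (CPM per kb of canonical transcript, linear axis) in each library by group, with a dotted line at equal levels and a symbol for each replicate number. IgG (1.08 to 1.5) and APB5+Mino (1.12 to 1.26) lie above the line, IgG+Mino (0.840 to 0.962) and APB5 (0.335 to 0.896) below it.

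Dll4, the Delta-like ligand of sprouting endothelium, lies at chr2:119156170-119166443 on the plus strand. Its levels were low, with 2.23, 2.32 and 2.64 CPM in IgG, 3.75, 3.29 and 2.65 CPM in IgG+Mino, 3.22, 3.03 and 3 CPM in APB5, and 3.38, 3.51 and 2.69 CPM in APB5+Mino. The IgG libraries were the lowest 3 of the 12, with the highest of them next to the lowest of IgG+Mino. Dll4 in APB5 against IgG had a log2 fold change of 0.36 (SE 0.21 and adjusted P = 0.690 by edgeR), and in IgG+Mino against IgG it was 0.43 (SE 0.21, adjusted P = 0.585). The values for APB5+Mino against APB5 and against IgG+Mino were 0.05 and −0.02. The endothelial markers in sum were 247, 260 and 306 CPM in IgG and 304, 300 and 374 CPM in APB5, with Kdr as the most abundant, and 10 of 14 were higher in APB5 (median log2 fold change 0.35). Without APB5 replicate 3 these were 8 of 14 with a median of 0.06, while Dll4 was at 0.38. The markers summed to 230, 291 and 264 CPM in IgG+Mino, with 13 of 14 at a lower mean level than in IgG (median log2 fold change −0.32), and all 14 were lower in APB5+Mino than in APB5. Their part in the values of Dll4 was not tested.

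Of the receptors, Notch1 is the broadly expressed one and lies at chr2:26347915-26406675 on the minus strand. It measured 20.6, 23.2 and 38.4 CPM in IgG, 22.0, 41.5 and 25.7 CPM in IgG+Mino, 31.4, 32.8 and 55.5 CPM in APB5 and 30.5, 38.3 and 32.2 CPM in APB5+Mino. A single library was high in each of IgG, IgG+Mino and APB5, and all groups overlapped. Its log2 fold change was 0.55 (SE 0.31 and adjusted P = 0.686 by edgeR) for APB5 against IgG and 0.23 without APB5 replicate 3. The other 3 comparisons gave −0.25 to 0.17, with adjusted P values of 0.465 to 0.902.

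Notch4, the endothelial receptor, lies at chr17:34783220-34807477 on the plus strand. It measured 6.36, 5.46 and 7.62 CPM in IgG, 5.63, 3.52 and 3.96 CPM in IgG+Mino, 6.16, 6.10 and 11.2 CPM in APB5, and 4.23, 4.37 and 5.39 CPM in APB5+Mino. All APB5+Mino libraries lay below all APB5 libraries, and APB5 replicate 3 was the highest of the 12. The log2 fold change was −0.75 (SE 0.28, adjusted P = 0.109 by edgeR) for APB5+Mino against APB5, and −0.40 (adjusted P = 0.0834) without APB5 replicate 3. In the fit of all 12 libraries with the Xist class as a term it was −0.69 with an adjusted P of 0.0349. For IgG+Mino against IgG it was −0.56 (SE 0.22, adjusted P = 0.585). Beside these values, 14 of 14 endothelial markers were lower in APB5+Mino than in APB5 retinas, 10 of them with an unadjusted P under 0.05 and 3 with an adjusted P of at most 0.05, at a median log2 fold change of −0.75, or −0.73 without APB5 replicate 3. The endothelial markers summed to 225, 236 and 211 CPM in APB5+Mino, and their part in the level of Notch4 was not tested.

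The target genes encode the repressors through which Notch acts. RBPJ binds DNA at a core of the letters TGGGAA, and its preferred form GTGGGAA includes that core. The 250 bases before the canonical start of each gene were searched for both on either strand in the GRCm39 genome. TGGGAA occurred in 22.7% of 21751 promoters of this length, at least 2 copies in 3.06%, and GTGGGAA in 5.48%. Hes1 and Hes5 held 2 copies of the core each, Hey1 and Hey2 held 1 each, and Heyl, the 3 ligands and the 2 receptors held none in this window. The matches in Hes1 began 49 and 35 bases before the start, those in Hes5 219 and 75 bases and that in Hey2 158 bases before it. The longer form was met once in Hes1, in both copies of Hes5, and in Hey1 and Hey2. The promoters of Hes1, Hes5 and Hey2 are shown because these genes are the textbook readout of the pathway. They are written 5′ to 3′ on the strand of the gene, with capitals for the core or its reverse complement TTCCCA. A match is a stretch of letters and does not show that RBPJ is bound.
Hes1 at chr16:29883877-29884126, plus strand: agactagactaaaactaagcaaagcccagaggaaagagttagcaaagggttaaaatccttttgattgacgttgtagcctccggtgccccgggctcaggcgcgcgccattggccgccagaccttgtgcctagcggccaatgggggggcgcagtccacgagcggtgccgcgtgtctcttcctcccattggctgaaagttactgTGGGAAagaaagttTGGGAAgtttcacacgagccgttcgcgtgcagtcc
Hes5 at chr4:155045123-155045372, plus strand: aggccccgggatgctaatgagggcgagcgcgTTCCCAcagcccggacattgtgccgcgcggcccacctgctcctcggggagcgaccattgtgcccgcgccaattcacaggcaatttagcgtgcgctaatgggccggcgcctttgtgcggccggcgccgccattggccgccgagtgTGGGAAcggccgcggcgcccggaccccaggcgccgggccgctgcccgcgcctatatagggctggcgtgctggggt
Hey2 at chr10:30718829-30719078, minus strand: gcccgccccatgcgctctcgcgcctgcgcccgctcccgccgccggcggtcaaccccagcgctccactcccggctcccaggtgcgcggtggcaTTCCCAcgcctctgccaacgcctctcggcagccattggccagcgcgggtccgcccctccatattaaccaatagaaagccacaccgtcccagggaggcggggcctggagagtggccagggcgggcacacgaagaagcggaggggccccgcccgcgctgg

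**Figure D4:**
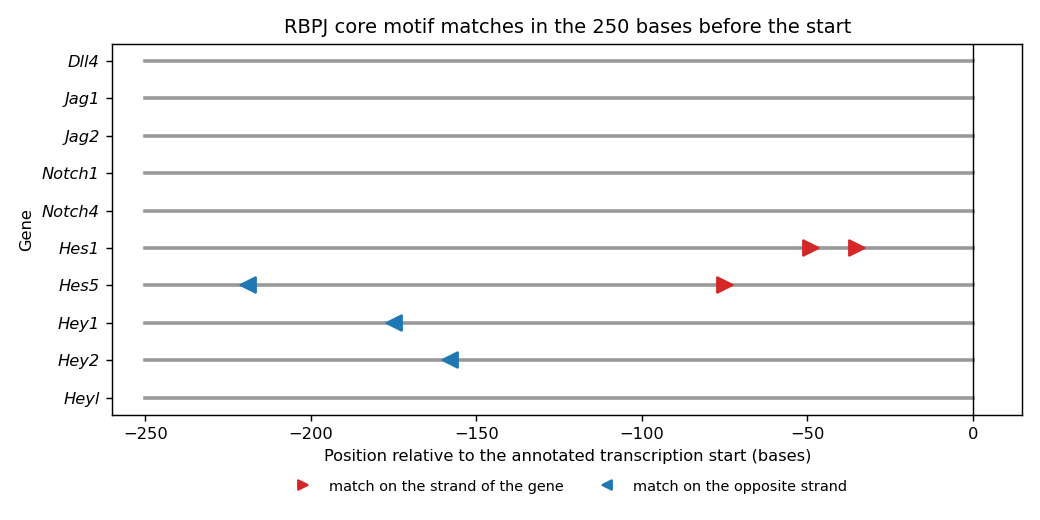
Positions of the RBPJ core in the 250 bases before the start of each gene (horizontal axis in bases, start at 0), with right-pointing triangles for matches on the strand of the gene and left-pointing ones for the opposite strand. Hes1 and Hes5 hold 2 matches each, Hey1 and Hey2 hold 1 each, and the other 6 genes hold 0.

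Hes1, with its 2 closely spaced copies of the core, lies at chr16:29882134-29886643 on the plus strand. It measured 11.6, 16.9 and 53.2 CPM in IgG, 16.2, 13.2 and 11 CPM in IgG+Mino, 14.0, 12.7 and 26.3 CPM in APB5, and 15.7, 13.3 and 11.8 CPM in APB5+Mino. IgG replicate 3 and APB5 replicate 3 were high, and the other 10 libraries lay between 11 and 16.9 CPM. The fold changes followed these libraries. For APB5 against IgG the log2 fold change was −0.61 (SE 0.57, adjusted P = 0.781 by edgeR), and it was 0.30 without IgG replicate 3. For IgG+Mino against IgG it was −1.01 (SE 0.47, adjusted P = 0.585), and −0.07 without that library.

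Hes5, at chr4:155045373-155046828 on the plus strand, shared the high library. It measured 1.38, 1.18 and 7.76 CPM in IgG, 2.64, 1.73 and 1.48 CPM in IgG+Mino, 2.15, 1.64 and 1.41 CPM in APB5, and 1.95, 1.79 and 1.83 CPM in APB5+Mino. IgG replicate 3 was far above the other 11 libraries, which lay between 1.18 and 2.64 CPM. Its log2 fold change of −0.96 (SE 0.71, adjusted P = 0.733 by edgeR) for APB5 against IgG became 0.42 without IgG replicate 3, and that of −0.80 for IgG+Mino against IgG became 0.60. Nrarp, a feedback inhibitor and direct target of Notch, was also highest in IgG replicate 3, with 12 CPM against 7.19 and 8.06 CPM in the other IgG retinas, and so was Lfng, which glycosylates Notch receptors, with 31.7 CPM against 16.5 and 21.7 CPM. Both were chosen after their values were seen. In that library the Müller glia markers summed to 6151 CPM, against 4739 and 5178 CPM in the other IgG retinas, with Glul as the most abundant. Its rod markers were also high, at 69750 CPM against 49181 and 52229 CPM, and its Glul was the highest of the 12 libraries, at 2816 CPM. In APB5 replicate 3 the Müller glia markers summed to 7344 CPM but Glul was the lowest of the 12, at 1599 CPM, beside Hes1 at 26.3 and Hes5 at 1.41 CPM. The part of these cells in the levels of Hes1 and Hes5 was not tested.

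Hey1, which marks arterial endothelium among other cells, lies at chr3:8726956-8732385 on the minus strand. It measured 17.5, 16.3 and 22.2 CPM in IgG, 15.8, 18.8 and 16.3 CPM in IgG+Mino, 21.3, 17.5 and 17.8 CPM in APB5, and 14.7, 11.9 and 11.5 CPM in APB5+Mino. The 3 APB5+Mino libraries were the lowest of the 12. Hey1 in APB5+Mino was 0.673 times its level in APB5 (log2 fold change −0.57, SE 0.15, adjusted P = 0.0570 by edgeR), and 0.748 times that in IgG+Mino (−0.42, SE 0.13, adjusted P = 0.0757). Neither passed, with or without the fold threshold. The first was −0.61 with an adjusted P of 0.0141 without APB5 replicate 3, −0.58 with 0.0641 with the replicate number as a block, and −0.57 with 0.00841 by DESeq2. Without APB5 replicate 2 it was −0.62 with an adjusted P of 0.0474, and without APB5 replicate 1 or any of the APB5+Mino libraries the adjusted P was 0.117 to 0.22. The second had an adjusted P of 0.0267 by DESeq2, 0.036 without IgG+Mino replicate 1 and 0.0678 to 0.273 without each of the other 5 libraries. Without minocycline, Hey1 in APB5 against IgG was at 0.02 (SE 0.17, adjusted P = 0.981). In APB5+Mino against APB5, 14 of 14 endothelial and 6 of 7 arterial markers had lower values, with median log2 fold changes of −0.754 and −0.456. In APB5+Mino against IgG+Mino, 10 of 14 endothelial and 2 of 6 tested arterial markers did, with medians of −0.291 and 0.050. Their part in the level of Hey1 was not tested.

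Hey2 and Heyl were highest in APB5 replicate 3. Hey2, at chr10:30708350-30718828 on the minus strand, measured 10.4, 11 and 12.9 CPM in IgG, 10.6, 13 and 10.5 CPM in IgG+Mino, 13.6, 12.2 and 19.8 CPM in APB5 and 10.6, 11.1 and 9.74 CPM in APB5+Mino. The APB5 and APB5+Mino libraries did not overlap, and their difference was −0.54 on the log2 scale (SE 0.20, adjusted P = 0.106 by edgeR), or −0.30 without APB5 replicate 3. Heyl, at chr4:123127349-123143682 on the plus strand and known from vascular smooth muscle, measured 1.30, 1.77 and 2.80 CPM in IgG, 1.69, 1.9 and 2.03 CPM in IgG+Mino, 2.55, 1.79 and 6.28 CPM in APB5, and 2.18, 1.46 and 2.11 CPM in APB5+Mino. APB5 replicate 3 alone exceeded 3 CPM. Its log2 fold change for APB5 against IgG was 0.86 (SE 0.52, adjusted P = 0.697) with all libraries and 0.15 without APB5 replicate 3.

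The pericyte and smooth muscle markers were, like Heyl, highest in APB5 replicate 3. They summed to 99.0, 110 and 107 CPM in IgG, 77.8, 80.0 and 89.9 CPM in IgG+Mino, 130, 127 and 469 CPM in APB5 and 67.8, 73.1 and 68.0 CPM in APB5+Mino, with Rgs5 as the most abundant. In APB5 against IgG, 9 of 11 tested markers had higher values, with a median log2 fold change of 1.00, and 7 of 11 without APB5 replicate 3, with a median of 0.22. In APB5+Mino against APB5 11 of 11 had lower values (median −1.36) and Heyl was at −0.88, which without APB5 replicate 3 became a median of −0.62 and −0.18 for Heyl. In IgG+Mino against IgG 11 of 11 had lower values (median −0.30) while Heyl was at −0.05, and in APB5+Mino against IgG+Mino 10 of 11 did (median −0.24) while Heyl was at 0.03. Pdgfrb, the target of the antibody, was at 13.6, 12.9 and 20.1 CPM in IgG, 15.3, 18.5 and 14.5 CPM in IgG+Mino, 15.4, 16.3 and 38.7 CPM in APB5, and 15.1, 14.3 and 14.6 CPM in APB5+Mino. No marker of these lists was at 0 in all libraries. The part of these cells in the levels of Hey2 and Heyl was not tested.

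**Figure D5:**
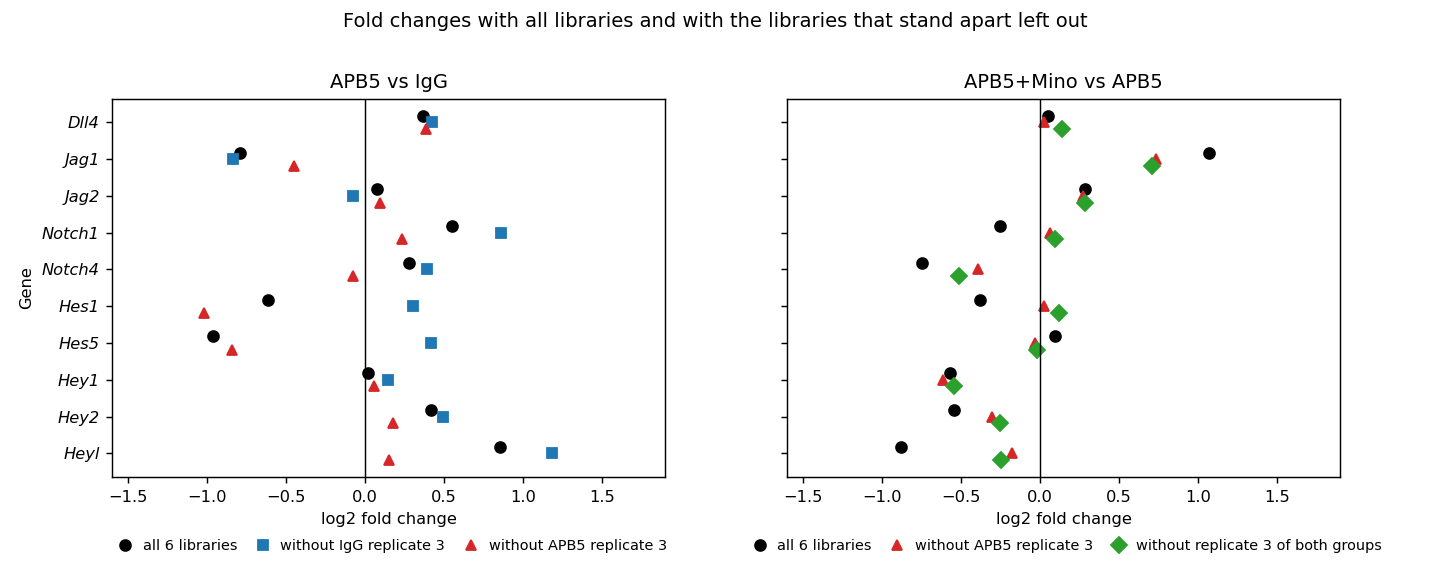
Log2 fold changes of the 10 genes for APB5 against IgG and for APB5+Mino against APB5, with all 6 libraries (circles) and with single libraries left out (squares, triangles) or replicate 3 of both groups left out (diamonds). Hes1 and Hes5 move from −0.61 and −0.96 to 0.30 and 0.42 without IgG replicate 3, Heyl moves from 0.86 to 0.15 without APB5 replicate 3, and Hey1 and Jag2 in APB5+Mino against APB5 move little.

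Across the 12 libraries, Jag1 ran against Hey2 and Heyl, with Pearson correlations of log2 CPM of −0.89 and −0.80, and Jag2 against Hey1, with −0.76. Hey2 and Heyl ran together at 0.85, Notch1 and Hey2 at 0.76, and Hes1 and Hes5 at 0.75. These describe 12 libraries that share APB5 replicate 3 and IgG replicate 3 as their extremes. Of all genes with a mean of at least 1 CPM, those most alike were Hmgxb4, Pigw and Upf1 for Jag1 (0.982, 0.972 and 0.965), Pabpc1l for Jag2 (0.946) and Gm10698 for Dll4 (0.839). For the receptors they were Rnf213 for Notch1 (0.947) and Ccdc102a for Notch4 (0.974). For the targets they were Dapk3 for Hes1 (0.901), Gpaa1 for Hes5 (0.960), Nmrk1 for Hey1 (0.973), Efcab12 for Hey2 (0.972) and Hfe for Heyl (0.982).

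The other genes of the pathway were taken from a list of 58, of which 56 or 57 were tested. None was a 2-fold DEG in any of the 4 comparisons by edgeR, and DESeq2 also called 0 in each. At an unadjusted P under 0.05, 6 were higher and 0 lower in APB5 than in IgG, 9 higher and 12 lower in APB5+Mino than in APB5, 9 higher and 1 lower in IgG+Mino than in IgG, and 3 higher and 9 lower in APB5+Mino than in IgG+Mino. The shares of all genes at this P, both directions together, were 7.23%, 35.9%, 8.37% and 29.3%. Their median log2 fold changes in this order were 0.07, −0.05, 0.06 and −0.04. Without the fold threshold 3 of 56 passed in APB5+Mino against APB5, which is a count near the 4.82% of all genes, and 2 of 56 passed in APB5+Mino against IgG+Mino, beside 8.09% of all genes. By DESeq2 these counts were 15 and 6, and with the replicate number as a block in edgeR they were 0 and 10. The shares of all genes at any fold in these fits are not given here, so the counts are not read as particular to the list. With the replicate number as a block, edgeR called none of all genes in APB5+Mino against APB5 at 2-fold.

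Pofut1, which adds the O-fucose that Notch receptors need, was at 48.8, 56.5 and 41.2 CPM in APB5, 57.8, 60.2 and 55.2 CPM in IgG+Mino and 68.4, 78.8 and 78.3 CPM in APB5+Mino. It rose by 0.38 on the log2 scale against IgG+Mino (SE 0.09, adjusted P = 0.0387 by edgeR), and its value against APB5 was 0.62 (SE 0.14, adjusted P = 0.0503).

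Genes that fell in APB5+Mino against APB5 were Maml2, a Mastermind coactivator, and Psenen, a γ-secretase subunit. Maml2 measured 17.8, 20.6 and 19.4 CPM in APB5 and 10.3, 12.7 and 10.5 CPM in APB5+Mino, with a log2 fold change of −0.79 (SE 0.13 and adjusted P = 0.0461 by edgeR). Psenen measured 21.0, 16.5 and 18.9 CPM in APB5 and 10.4, 8.52 and 11.7 CPM in APB5+Mino, with a log2 fold change of −0.88 (SE 0.16 and adjusted P = 0.0461). Neither pair of groups overlapped. Against IgG+Mino the libraries of both genes overlapped, at −0.59 for Maml2 (adjusted P = 0.0721) and −0.38 for Psenen (adjusted P = 0.129). Psenen overlaps U2af1l4 on the opposite strand, so its reads may be uncertain.

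These calls were not kept when some single libraries were omitted, at fold changes of similar size. In APB5+Mino against APB5, the adjusted P of Maml2 and Psenen by edgeR came to 0.105 without APB5 replicate 1 and to 0.117, 0.214 and 0.205 without APB5+Mino replicates 1, 2 and 3, and no gene of the list passed in any of these fits. Over these 4 fits the log2 fold change was −0.89 to −0.73 for Maml2 and −0.99 to −0.76 for Psenen. Without APB5 replicate 3, 16 of 56 passed at any fold, beside 5484 of 20621 genes in that fit, so this count is near the background. Without APB5 replicate 2, 11 of 57 passed at any fold. The share of all genes in that fit is not given here, so this count is not read as particular to the list. Over the fits with a single library left out, 0 to 1789 of all genes passed at 2-fold. A count of 3 also reached 2-fold there, namely Dlk1, Ep300 and Spen, which are named here after their values were seen. Dlk1 was also a 2-fold DEG in APB5+Mino against APB5 with all 12 libraries in 1 fit, and in APB5 against IgG in that fit with the Xist class as a term. For the interaction, edgeR called 0 of 57 genes of the list, beside 0.0141% of all genes. DESeq2 called Maml2 there, and edgeR with the Xist class called Dlk1. Dlk1 measured 0.434, 0.128 and 9.68 CPM in APB5, and at most 0.346 CPM in the libraries of the other groups, so that APB5 replicate 3 alone was high. In APB5+Mino against IgG+Mino, Pofut1 was at an adjusted P of 0.127 without IgG+Mino replicate 3 and at 0.0519, 0.184 and 0.181 without APB5+Mino replicates 1, 2 and 3. Maml2, Psenen and Pofut1 kept the sign of their fold change throughout.

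Of the list, 7 genes were higher and 2 lower without overlap in APB5 than in IgG, beside 15.7% of all genes in either direction, 10 higher and 12 lower in APB5+Mino than in APB5 (46.5%), 8 higher and 2 lower in IgG+Mino than in IgG (14.4%), and 7 higher and 6 lower in APB5+Mino than in IgG+Mino (35.2%). Those named next did not overlap between groups and did not pass. In APB5+Mino against APB5, Mib1, a ubiquitin ligase for ligand endocytosis, had a log2 fold change of 0.46 (adjusted P = 0.0732 by edgeR) and Hes6, an inhibitor of Hes1, −0.46 (adjusted P = 0.0501). In APB5 against IgG these were Notch2 at 0.49, the convertase Furin at 0.32 and the corepressor Tle3 at 0.50 (adjusted P = 0.664 for each), and on the lower side Hes6 at −0.26 and the histone deacetylase Hdac2 at −0.20 (adjusted P = 0.664 and 0.692). In IgG+Mino against IgG, Dtx1 was at 0.55, Maml1 at 0.58 and Hdac2 at −0.26 (adjusted P = 0.585 for each). In APB5+Mino against IgG+Mino, the histone acetyltransferase Ep300 was at 0.42 (adjusted P = 0.121), Hes6 at −0.47 (0.0706), Hdac2 at −0.26 (0.0775) and the ubiquitin ligase Mib2 at −0.28 (0.0784).

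The remaining receptors and the genes listed as other targets were examined after their values were seen. Notch2 measured 27.5, 30.4 and 35.4 CPM in APB5 and 19.1, 23.6 and 20.1 CPM in APB5+Mino (log2 fold change −0.57, SE 0.14, adjusted P = 0.0532 by edgeR). Notch3, the receptor of mural cells, measured 7.95, 8.08 and 14.0 CPM in APB5 and 5.52, 6.01 and 5.63 CPM in APB5+Mino (−0.81, SE 0.25, adjusted P = 0.0741). Without APB5 replicate 3, Notch2 was at −0.47 and Notch3 at −0.49 (adjusted P = 0.0173 and 0.0198), and without any other single library their adjusted P was 0.0509 to 0.229. The 4 tested genes that the list groups as other targets were Hes6, Hes7, Nrarp and Efnb2. Hes6 was named above as an inhibitor of Hes1, so the group is not read as a measure of Notch output. All 4 were lower in every APB5+Mino than in every APB5 library, beside 46.5% of all genes whose groups did not overlap in either direction. Their log2 fold changes were −0.46, −0.89, −0.48 and −0.64, with adjusted P values of 0.0501, 0.0789, 0.0905 and 0.0596 by edgeR. Without APB5 replicate 3 they were at −0.52, −0.65, −0.60 and −0.44, with adjusted P values of 0.00528, 0.11, 0.00914 and 0.0111. In that fit, which also gave the values of Notch2 and Notch3 without this library, 5484 of 20621 genes passed at any fold. Without APB5 replicate 2, Hes6 and Efnb2 were at an adjusted P of 0.047 and 0.0398, and none of the 4 passed without any of the other 4 libraries. Efnb2 and Notch3 are also in the marker lists for arterial endothelium and for pericytes and smooth muscle. Of these lists, 6 of 7 and 11 of 11 tested genes had lower values in APB5+Mino than in APB5, with medians of −0.46 and −1.36 on the log2 scale, or −0.42 and −0.62 without APB5 replicate 3. The part of these cells in the values of Notch2, Notch3, Hes6, Hes7, Nrarp and Efnb2 was not tested.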

How the data were processed

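RNA-Seq libraries were made from poly-A RNA with a stranded kit and sequenced as single reads, and the authors processed them with bcl2fastq and the DRAGEN RNA pipeline on a custom mm39 genome with the NCBI annotation. The version of DRAGEN and the use of strand in counting are not given in the sources used here. The deposited table holds each value as an unnormalized count of reads per gene. Its 3 repeated columns, identical to those they repeat, were not used, nor were a further count table and the authors' tables of log2 fold changes, P values and pooled means.

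Each pair of groups was fitted on its own with R 4.3.3 and edgeR 4.0.16 (filterByExpr defaults, TMM, quasi-likelihood test without robust estimation, prior count 2), with Benjamini-Hochberg adjustment over all genes tested. DEGs were genes with an adjusted P up to 0.05 that differed by 1 or more on the log2 scale. The interaction was fitted on all 12 libraries. The scripts were tested on simulated data. An exact permutation test of 3 against 3 libraries cannot go below 0.1, and none was run. Total counts of 52740545 to 59411044 per library set the precision of single values.

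Coordinates, lengths and promoters come from GENCODE vM39 and GRCm39. The genes and lists were chosen with earlier results of these data known, and the pathway and marker lists were written from general knowledge. Named beyond the 10 genes were pathway genes passing the adjusted P, the 3 of smallest P per direction and comparison among those without overlap and with at least 1 CPM, the most abundant marker of a list, Pdgfrb, Xist, and the genes most alike over the libraries. Genes picked later, from their values, are marked as such in the text. Some genes these rules named and a promoter sequence are not reported here.

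Replicate numbers are shared by the groups, and their meaning is not given. For APB5+Mino against APB5, deviations from the group means correlated by 0.119, 0.169 and 0.127 in the same-numbered pairs. In APB5 against IgG a differently numbered pair reached 0.188, so these values neither show nor exclude a pairing. The main fits did not use a pairing, and the replicate block named below does. In each other comparison at least 1 pair was under 0.1. Alternatives were RLE scaling, library size only, DESeq2 1.42.0, no filter on counts, a filter of 10 counts in each library, robust estimation, all 12 libraries in a fit, the replicate block, a term for high or low Xist, no fold threshold, and omission of every library in turn. Leaving out both replicate 3 libraries was added after seeing the data.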

Additional observations from a re-analysis of the deposited data

Results flagged for a closer look

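Jag1 stood out because its difference between retinas with and without minocycline ran in opposite directions under the 2 antibodies. In the fits of each pair of groups its log2 fold change was −0.38 for IgG+Mino against IgG and 1.07 for APB5+Mino against APB5. All IgG+Mino libraries lay below all IgG libraries and all APB5+Mino libraries above all APB5 libraries. The interaction fit of all 12 libraries put the difference of these log2 fold changes at 1.464 (SE 0.40). In that fit the same 1.464 separates the log2 fold change of APB5 against IgG with minocycline from that without it. The pairwise fits put these at 0.67 and −0.79. The test of the difference itself gave an adjusted P of 0.159 by edgeR's quasi-likelihood test. IgG libraries were all high and IgG+Mino libraries all low in Xist, and the part of this in the difference was not tested apart from the fit with a term for Xist.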

How the results depend on the processing

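With 3 libraries a group, fold changes near 0 turned easily, and counts of the 10 genes called moved between 0 and 1. That gene was Jag1 wherever 1 was called. For APB5 against IgG, 1 was called with a term for Xist class in a fit of all 12 libraries (Jag1 at −1.273, adjusted P = 0.0369 by edgeR). For APB5+Mino against APB5, 1 was called by DESeq2, with all 12 libraries in a fit and with the term for Xist class, and 0 to 1 with each library left out. For APB5+Mino against IgG+Mino, 1 was called with no fold threshold. For the interaction, 1 was called by DESeq2 and with the Xist term, and 0 to 1 with each library left out. The Xist term rests on replicate 3 of APB5 and of APB5+Mino, so that it also takes up what set APB5 replicate 3 apart. All other alternatives run gave 0, and in each the cause was not tested.

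With the replicate block, the count of the 10 genes stayed at 0 in every comparison, Heyl in IgG+Mino against IgG was at 0.009, and the calls over all genes in APB5+Mino against APB5 went from 336 to 0. Under library size only, that comparison went to 5, and Dll4 was at −0.04 there and at 0.006 in APB5+Mino against IgG+Mino. RLE scaling and DESeq2 each put Hey2 at 0.007 in IgG+Mino against IgG. The Xist term turned Hey1 to −0.096 in APB5 against IgG, Notch4 to 0.044, Hey2 to 0.245 and Heyl to 0.864 in IgG+Mino against IgG, and Dll4 to 0.043, Notch4 to −0.114, Hes1 to −0.086, Hes5 to 0.007 and Heyl to −0.251 in APB5+Mino against IgG+Mino. Leaving out both libraries numbered 3 turned Jag2 to −0.056 and Hes5 to 0.552 in APB5 against IgG. In APB5+Mino against APB5, the libraries low in Xist alone put Notch1 at 0.098, Hes1 at 0.119 and Hes5 at −0.021.

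The DEGs over all genes, the background given beside the 10 genes, also rested on single libraries. With each library left out in turn, they numbered 0 to 1789 in APB5+Mino against APB5 and 0 to 458 in APB5+Mino against IgG+Mino. They numbered 0 to 21 in APB5 against IgG, 6 to 10 in IgG+Mino against IgG and 0 to 113 in the interaction. When single libraries were omitted, the fold changes (log2) that changed sign had the following lowest and highest values. They were Hes1 −1.021 to 0.304, Hes5 −1.366 to 0.42, Hey1 −0.077 to 0.147, Jag2 −0.076 to 0.217 and Notch4 −0.074 to 0.428 in APB5 against IgG. They were Dll4 −0.019 to 0.161, Hes1 −0.565 to 0.026, Hes5 −0.034 to 0.272 and Notch1 −0.394 to 0.066 in APB5+Mino against APB5. They were Hes5 −1.206 to 0.598, Hey1 −0.215 to 0.011, Hey2 −0.104 to 0.091, Heyl −0.271 to 0.291, Jag2 −0.107 to 0.235 and Notch1 −0.186 to 0.451 in IgG+Mino against IgG. They were Dll4 −0.151 to 0.098, Hes1 −0.118 to 0.167, Hes5 −0.24 to 0.203, Heyl −0.071 to 0.171, Notch1 −0.001 to 0.489 and Notch4 −0.047 to 0.309 in APB5+Mino against IgG+Mino. The sign of Jag1 held in all comparisons and alternatives run.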
